A study of Homo sapiens with 6 samples.

Results

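N-glycosylation attaches a branched sugar tree to asparagine residues of secreted and membrane proteins. Its enzymes were examined here in the human colorectal cancer line SW620, an established cell line, as 48 named genes among the 60605 of the count table. They were taken by symbol and cover dolichol-linked assembly, the oligosaccharyltransferase, trimming by glucosidases and mannosidases, GlcNAc branching and the addition of fucose, galactose and sialic acid. The libraries labelled ELAPOR1 (n = 3) came from cells stably carrying ELAPOR1 in a lentiviral vector with puromycin resistance, and those labelled vector (n = 3) from cells carrying the empty vector. Cells of both groups received virus at a multiplicity of 20, were selected in 2 ug/ml puromycin and grew in 10% serum, and poly(A) RNA was sequenced from 1 ug of total RNA. The labels do not say whether a line is 1 clone, or whether the libraries came from separate cultures, so p-values cover only library-to-library spread, part of which may be technical.

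As background, the glycan is built on the lipid dolichol, at the cytosolic and then the luminal face of the endoplasmic reticulum (ER), and is moved as a block to nascent proteins by the oligosaccharyltransferase. Glucosidases and mannosidases trim it in the ER and the cis-Golgi. In the medial Golgi MGAT1 adds a GlcNAc, mannosidase II (MAN2A1 or MAN2A2) removes further mannoses, and MGAT2, MGAT4A, MGAT4B and MGAT5 add the branches that are then extended with galactose and sialic acid. Highly branched and sialylated N-glycans are well known on colorectal cancer cells.

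The libraries held 16401813 to 20571924 counts. ELAPOR1 had 349496, 404278 and 370187 counts in the libraries labelled ELAPOR1, against 225, 227 and 144 in the vector libraries, as their labels say. Of 12 markers of colorectal epithelium, 11 could be tested, and 1 was higher and 5 lower in ELAPOR1 cells (edgeR, adjusted p under 0.05), where 10.0% of all tested genes were higher and 11.4% lower. Their summed level in FPKM (fragments scaled to exonic length and library total) was 1832 to 1857 in ELAPOR1 cells and 2012 to 2104 in vector cells. Markers of other cells were low: 6 fibroblast genes summed to 8.33 to 10.3 FPKM in ELAPOR1 cells and 5.69 to 6.30 FPKM in vector cells, mostly from LUM, while COL1A2, COL3A1 and DCN had at most 2 counts in any library. The sums were 3.87 to 4.10 against 2.62 to 4.22 FPKM for 6 immune genes, 0.22 to 0.32 against 0.27 to 0.31 FPKM for 4 endothelial genes, and 0.02 to 0.10 against 0.02 to 0.11 FPKM for 4 kidney or neuronal genes that would mark packaging cells. In bulk RNA, fewer cells of a type and less RNA per cell cannot be told apart, and the part of these markers in the results was not tested.

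MAN2A1 was far higher in ELAPOR1 cells than in vector cells. MGAT4A was higher too, at a level near the detection limit, and the rest of the set moved little. Of the 48 genes, 46 had enough counts to test and 15 (32.6%) passed an adjusted p of 0.05 in edgeR, where 21.4% of all 16003 tested genes did. STT3B, MAN2A1, MGAT4A, MGAT4B and MGAT5 were higher, 5 of 46 or 10.9% beside 10.0% of all genes. ALG2, ALG5, STT3A, RPN1, RPN2, DAD1, OSTC, MAN1A1, B4GALT1 and ST6GAL1 were lower, 10 of 46 or 21.7% beside 11.4% of all genes. The median log2 fold change was -0.07 over the 46 genes and 0.00 over all tested genes. The values of the groups did not overlap for 20 of the 46, and did not overlap for 33.8% of all tested genes. Among the 13 called genes other than MAN2A1 and MGAT4A the largest log2 change was 0.67 in size. The count of higher genes rested on small changes and was 3 without ELAPOR1 replicate 3 and 3 without vector replicate 3. MGAT4A is the one tested member that reached 10 counts in every library of a single group, so the filter passed it through the ELAPOR1 libraries. TUSC3 (0, 0 and 0 counts in ELAPOR1 cells, 2, 1 and 2 in vector cells) and MAN1C1 (1, 4 and 1 counts in ELAPOR1 cells, 5, 5 and 3 in vector cells) were too low to test.

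**Figure D1:**
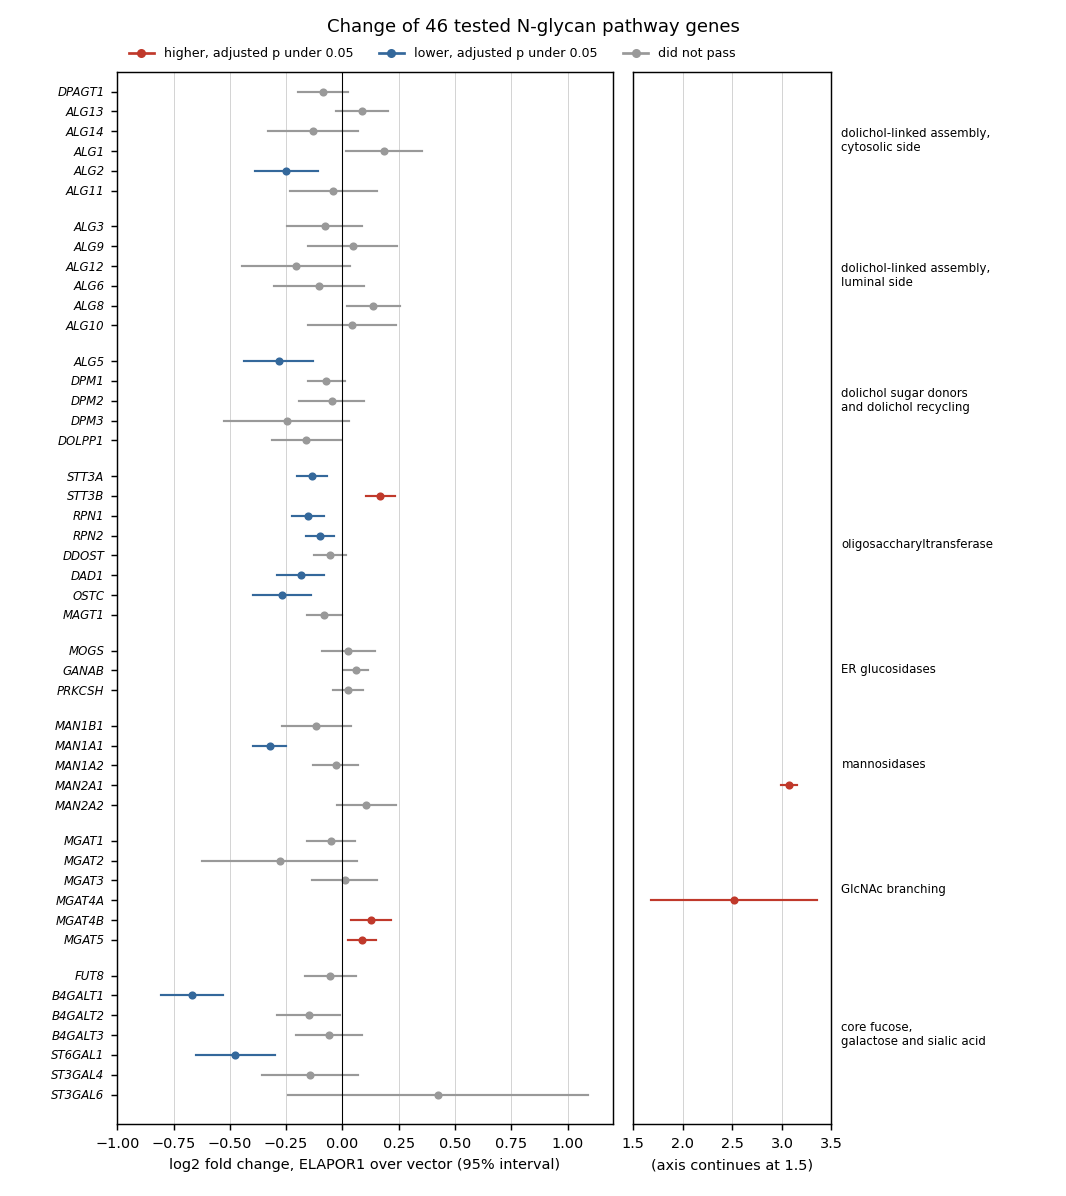
Log2 fold change (horizontal axis, ELAPOR1 over vector) of the 46 tested N-glycan genes, grouped by step from dolichol-linked assembly to terminal sugars; points are edgeR estimates, bars their 95% intervals, colours the call, and the axis is broken below 1.5. MAN2A1 at 3.07 and MGAT4A at 2.51 stand away from the remaining genes, 40 of the 46 lying within 0.3 of 0.

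MAN2A1 encodes mannosidase IIA, which removes the mannoses that stand in the way of complex-type branching, and it had the largest log2 change of the 46 tested genes. The gene lies on chromosome 5 at 109689927 to 109869625, plus strand (GRCh38). It had 386, 387 and 413 CPM (its count relative to the library total, TMM-scaled) in ELAPOR1 cells, against 46.9, 47.1 and 47.2 CPM in vector cells. The groups were far apart, and each was narrow. The level was 34.8 ± 1.37 FPKM in ELAPOR1 cells and 4.21 ± 0.010 FPKM in vector cells (SD, n = 3 each). By level it ranked 11 of the 48 genes in ELAPOR1 cells and 33 in vector cells. The log2 fold change was 3.07 ± 0.041 (SE), or 8.40-fold, with a 95% interval of 2.99 to 3.15 and an edgeR adjusted p of 1.87e-64. Across the table, 15 genes called higher changed at least that much, MAN2A1 included.

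MAN2A2 encodes the other Golgi mannosidase II, which carries out the same trimming. It had 44.6, 44.0 and 44.2 CPM in ELAPOR1 cells and 41.7, 39.3 and 42.4 CPM in vector cells. All 3 ELAPOR1 values lay just above all 3 vector values, but the difference did not pass the test (log2 0.11, 95% interval -0.02 to 0.24, edgeR adjusted p 0.269). Per length the paralogs stood at the same level in vector cells, MAN2A1 at 4.21 FPKM and MAN2A2 at 4.24 FPKM. In ELAPOR1 cells they stood at 34.8 and 4.50 FPKM. MAN2A1 thus supplied 88.2%, 88.4% and 89.0% of the summed mannosidase II FPKM in ELAPOR1 cells, against 49.4%, 51.0% and 49.1% in vector cells. The difference in that share, 38.7 percentage points, was many times the spread between libraries; the exact permutation test gave 0.10, the smallest p that 3 against 3 libraries allow, and 0.18 adjusted over 18 shares. The log2 fold change of MAN2A1 exceeded that of MAN2A2 by 2.96 (95% interval 2.81 to 3.11, taking both estimates as independent). MAN2A2 shares 795 exonic bases with an unnamed gene on the opposite strand that held 0 counts, so its level and the shares are uncertain.

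The 250 bases before the annotated starts of this pair are shown because the paralogs diverged so widely in the data while sharing a level in vector cells. The sequences are RefSeq's (GRCh38.p14), 5′ to 3′ on the gene's strand, for MAN2A1 at chr5:109689677-109689926 and MAN2A2 at chr15:90902415-90902664, both plus strand. The RefSeq start is that of the count table for MAN2A1, and lies 447 bases inside the table's gene for MAN2A2.
MAN2A1: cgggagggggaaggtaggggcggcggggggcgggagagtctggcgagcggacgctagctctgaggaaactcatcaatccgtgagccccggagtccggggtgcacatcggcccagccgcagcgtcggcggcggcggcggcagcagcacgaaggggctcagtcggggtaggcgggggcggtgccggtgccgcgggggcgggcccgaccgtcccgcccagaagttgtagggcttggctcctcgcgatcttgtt
MAN2A2: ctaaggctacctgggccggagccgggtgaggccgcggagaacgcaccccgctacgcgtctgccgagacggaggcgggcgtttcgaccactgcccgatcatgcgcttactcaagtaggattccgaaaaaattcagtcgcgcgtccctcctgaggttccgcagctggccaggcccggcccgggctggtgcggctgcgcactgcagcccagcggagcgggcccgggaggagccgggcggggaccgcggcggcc
Both windows are rich in G and C, at 73.2% in MAN2A1 and 71.6% in MAN2A2, with 31 and 32 CG dinucleotides. No letters are in capitals, since neither window holds any of the motifs searched for further on. Peak or methylation data of these windows were not analysed here.

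Neighbouring genes of MAN2A1 were read to see whether the change extended along the chromosome. PJA2, whose gene ends 279953 bases before MAN2A1, averaged 81.2 CPM in ELAPOR1 cells and 82.6 CPM in vector cells (log2 -0.02, edgeR adjusted p 0.808), and FER, next beyond it, had a log2 value of 0.07 (0.682). On the far side TMEM232, 419608 bases away, was near 1 CPM in both groups (log2 -0.14, edgeR adjusted p 0.866), and SLC25A46 was higher by 0.18 (0.00475). None of the 4 approached the change of MAN2A1. No exonic bases of MAN2A1 are shared with another gene of the table, and none of its 25-base words occurs in an annotated ELAPOR1 transcript (GENCODE 29).

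**Figure D2:**
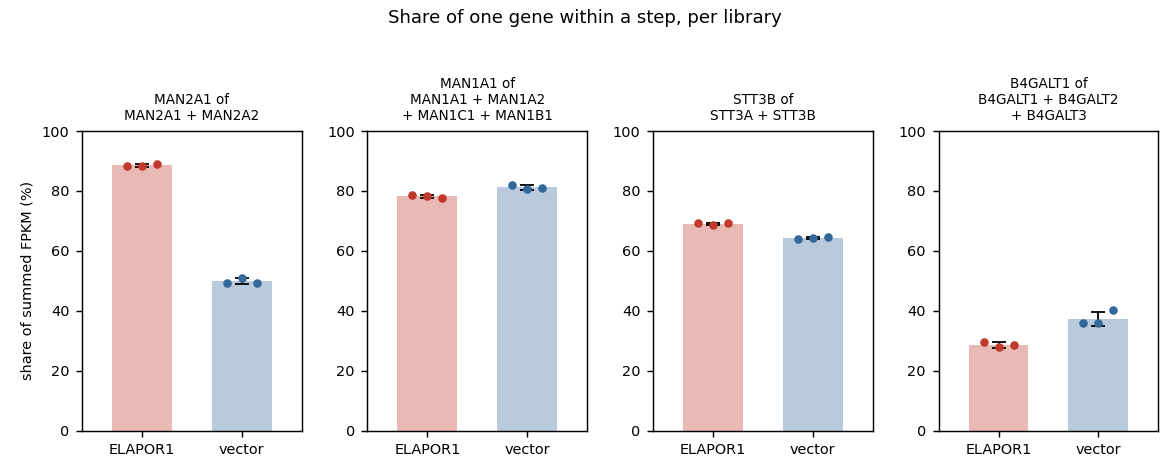
Share (%) of the summed FPKM of a paralog group supplied by MAN2A1, MAN1A1, STT3B and B4GALT1, 1 panel each, ELAPOR1 at the left of vector; points are libraries, bars means and error bars SD (n = 3). MAN2A1 supplied 88.6% of mannosidase II FPKM in ELAPOR1 cells and 49.8% in vector cells, while the shares of the other 3 genes moved by under 10 percentage points.

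The remaining mannosidases act before mannosidase II. MAN1A1, a Golgi alpha-mannosidase that trims the mannoses left after the ER, had 196, 191 and 197 CPM in ELAPOR1 cells, against 254, 234 and 242 CPM in vector cells. The groups did not overlap, and it fell by 0.32 ± 0.036 (SE) on the log2 scale (edgeR adjusted p 2.64e-11), to 38.4 FPKM in ELAPOR1 cells, against 48.8 FPKM in vector cells. Its paralog MAN1A2 had 74.1, 75.5 and 79.3 CPM in ELAPOR1 cells and 77.1, 76.5 and 80.3 CPM in vector cells, which overlap (log2 -0.03, edgeR adjusted p 0.750). The log2 value of MAN1A1 lay 0.29 below that of MAN1A2 (95% interval of the difference, MAN1A1 minus MAN1A2, -0.41 to -0.17). MAN1B1, the ER mannosidase that also marks misfolded glycoproteins for disposal, had 31.4, 28.8 and 33.8 CPM in ELAPOR1 cells and 32.4, 35.5 and 33.8 CPM in vector cells, again overlapping (edgeR adjusted p 0.312). MAN1A1 remained the main gene of its class, at 78.2% of their summed FPKM in ELAPOR1 cells and 81.2% in vector cells. With MAN2A1 included, the 6 mannosidases summed to 88.4 ± 2.22 FPKM in ELAPOR1 cells and 68.5 ± 2.13 FPKM in vector cells.

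MGAT4A was the other gene with a large change, at a level near the detection limit. It encodes an N-acetylglucosaminyltransferase IV, which adds a branch to the core that MGAT1 has opened, and lies on chromosome 2 at 98619106 to 98731132, minus strand. It had 44, 55 and 45 counts in ELAPOR1 cells, against 5, 5 and 16 counts in vector cells. Every ELAPOR1 library was above every vector library, and vector replicate 3 stood apart from the other two. The level was 0.280 ± 0.020 FPKM in ELAPOR1 cells and 0.0533 ± 0.040 FPKM in vector cells. The log2 fold change was 2.51 ± 0.42 (SE), with a 95% interval of 1.68 to 3.35 and an edgeR adjusted p of 2.01e-06. Without vector replicate 3 the log2 fold change was 3.41. The filter passed MGAT4A through the ELAPOR1 libraries, where it is high, so neither the interval nor the adjusted p is independent support. The neighbour UNC50, 591 bases away, averaged 32.2 CPM in ELAPOR1 cells and 33.2 CPM in vector cells (log2 -0.05, edgeR adjusted p 0.757), and COA5, next beyond it, had a log2 value of 0.00. On the far side TSGA10, 266129 bases away, averaged 9.54 CPM in ELAPOR1 cells and 7.65 CPM in vector cells (log2 0.32, edgeR adjusted p 0.0938), and SMC3P1 stood at 1.07 CPM in both groups. MGAT4A shares 36 of its 25-base words with annotated ELAPOR1 transcripts and none with ELAPOR1 coding sequence, and whether reads of the construct reached it was not tested further.

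Its paralog MGAT4B, which adds the same branch, was the abundant form in both groups. It had 114, 122 and 119 CPM in ELAPOR1 cells, against 107, 110 and 108 CPM in vector cells, which do not overlap. The log2 fold change was 0.13 ± 0.044 (edgeR adjusted p 0.0267). The adjusted p was 0.15 without ELAPOR1 replicate 2, 0.101 without ELAPOR1 replicate 3, 0.0624 without vector replicate 1 and 0.0807 without vector replicate 3, within a range of 0.0218 to 0.166 over all 16 alternative settings. MGAT4B shares 105 exonic bases with SQSTM1 on the opposite strand, which was itself higher by 0.31, and reads of the pair cannot be told apart there. MGAT4A supplied 1.30% ± 0.089 of the FPKM of this pair in ELAPOR1 cells and 0.269% ± 0.204 in vector cells (SD, n = 3 each). The change of MGAT4A exceeded that of MGAT4B by 2.39 on the log2 scale (95% interval 1.56 to 3.21, taking both estimates as independent). Since the filter passed MGAT4A through the ELAPOR1 libraries, that interval is no independent support.

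The other branching enzymes stayed close to their vector values. MGAT5, whose branch is the one best known in metastatic cells, had 459, 445 and 465 CPM in ELAPOR1 cells and 446, 406 and 437 CPM in vector cells. Those ranges overlap, and the log2 fold change of 0.09 ± 0.032 had an edgeR adjusted p of 0.0370. That call was lost without ELAPOR1 replicate 1 (0.125), ELAPOR1 replicate 3 (0.198), vector replicate 2 (0.379) or vector replicate 3 (0.0518), the adjusted p ranging over 0.00543 to 0.527 across the alternatives, and the authors' deposited table gives 0.0532. MGAT1, which opens the complex pathway, had 66.7, 70.5 and 67.6 CPM in ELAPOR1 cells and 73.2, 72.1 and 66.7 CPM in vector cells (edgeR adjusted p 0.569). MGAT2, which starts the other arm, had 5.41, 4.70 and 6.40 CPM in ELAPOR1 cells and 5.77, 6.44 and 7.88 CPM in vector cells (edgeR adjusted p 0.275). MGAT3, which adds the bisecting GlcNAc that blocks further branching, had 41.3, 37.4 and 35.7 CPM in ELAPOR1 cells and 39.1, 35.4 and 39.2 CPM in vector cells (edgeR adjusted p 0.951). The groups overlap for each of these 3 genes. MGAT2, of 2683 exonic bases, shares 2469 with an unnamed gene on the opposite strand that held 0 counts. The level of MGAT2 is therefore uncertain. In level, MGAT5 made up 58.9% of the summed FPKM of the 6 branching genes in ELAPOR1 cells and 58.3% in vector cells, with MGAT4B next at 24.3% in ELAPOR1 cells and 23.5% in vector cells.

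**Figure D3:**
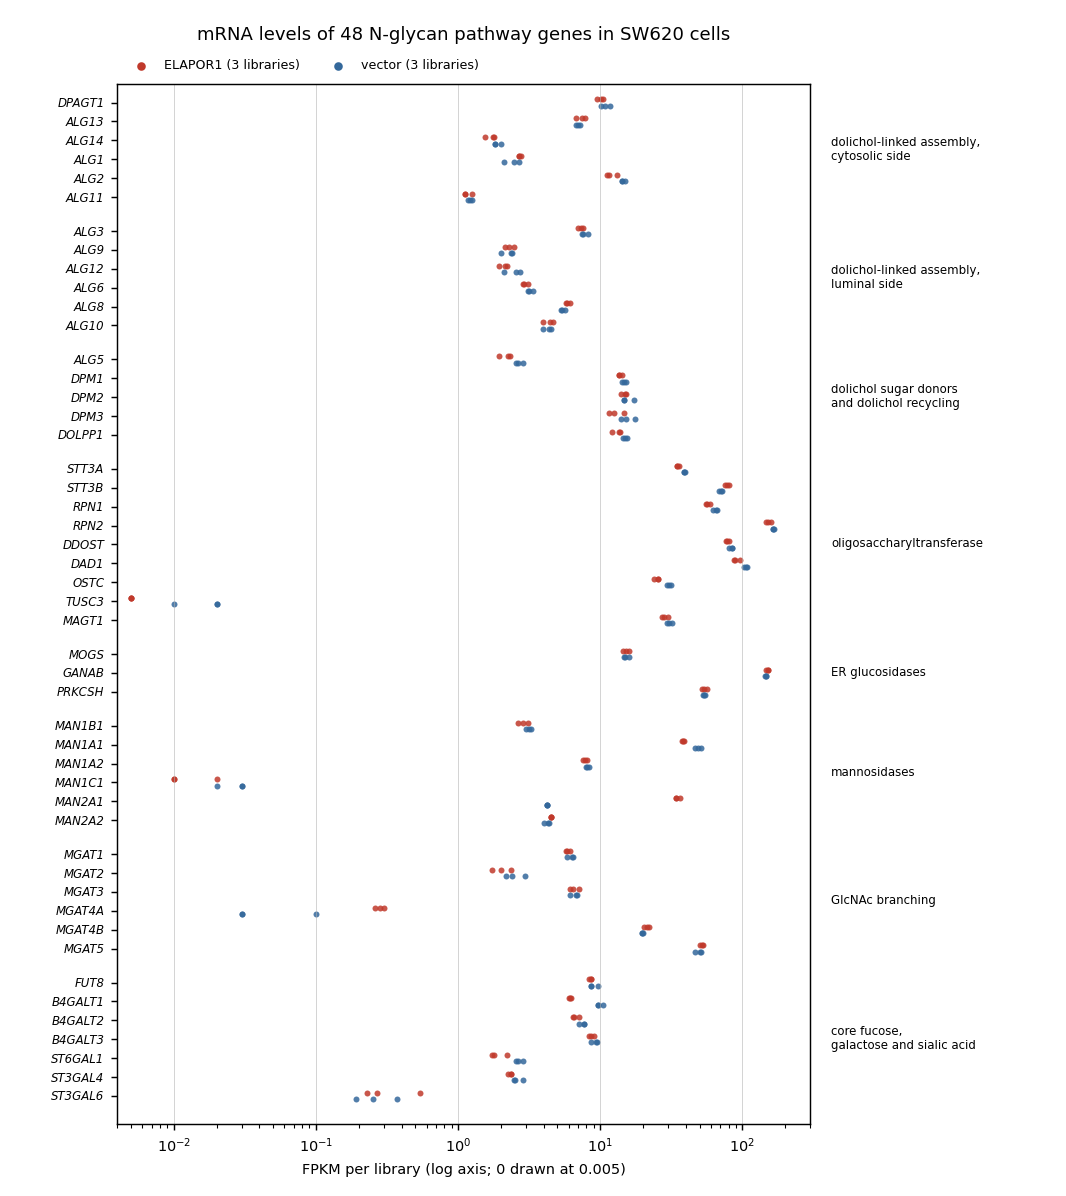
Level (FPKM, log axis) of each of the 48 N-glycan genes in every library, grouped by step, with ELAPOR1 and vector libraries as separate points. MAN2A1 at 34.8 FPKM in ELAPOR1 cells and 4.21 FPKM in vector cells is the widest separation among genes above 1 FPKM, and MGAT4A lies under 1 FPKM in both groups.

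The last steps add fucose, galactose and sialic acid, and 2 of 7 genes were lower in ELAPOR1 cells and none higher, with a median log2 value of -0.14. With 28.6% lower, beside 11.4% of all tested genes, the count rests on few genes. B4GALT1, a galactosyltransferase that extends GlcNAc branches, had 30.8, 29.8 and 30.4 CPM in ELAPOR1 cells, against 46.6, 47.0 and 51.2 CPM in vector cells. The groups were well separated, and it fell by 0.67 ± 0.069 (SE) on the log2 scale, 37.1% lower (edgeR adjusted p 1.73e-12). B4GALT2 and B4GALT3, which add the same sugar, did not pass (log2 -0.15 and -0.06, edgeR adjusted p 0.120 and 0.632). The value of B4GALT1 lay below that of B4GALT2 (difference -0.52, 95% interval -0.71 to -0.33) and of B4GALT3 (-0.61, -0.81 to -0.41). B4GALT1 supplied 28.6% ± 0.92 of the FPKM of the 3 genes in ELAPOR1 cells and 37.3% ± 2.43 in vector cells. B4GALT3, at 40.3% in ELAPOR1 cells and 34.5% in vector cells, was the highest of them per length in ELAPOR1 cells. B4GALT3 shares 1118 exonic bases with PPOX on the opposite strand, where reads of the pair cannot be told apart, so its level is uncertain.

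ST6GAL1, the sialyltransferase that caps galactose on N-glycans, had 24.8, 20.0 and 19.5 CPM in ELAPOR1 cells, against 31.5, 28.3 and 29.4 CPM in vector cells. The groups did not overlap, though ELAPOR1 replicate 1 lay nearer to the vector libraries than the other two. It fell by 0.48 ± 0.088 (SE) on the log2 scale (28.1% lower, edgeR adjusted p 1.68e-05). The sialyltransferases of the other linkage, ST3GAL4 and ST3GAL6, did not pass (log2 -0.14 and 0.43, edgeR adjusted p 0.389 and 0.416). ST3GAL6 was low, with 1.48, 1.72 and 3.42 CPM in ELAPOR1 cells and 1.53, 1.16 and 2.30 CPM in vector cells. It shares 235 exonic bases with the more abundant DCBLD2. FUT8, which adds the core fucose, was at 8.49 FPKM in ELAPOR1 cells and 8.95 FPKM in vector cells (edgeR adjusted p 0.582). Together the 7 genes summed to 34.5 ± 0.326 FPKM in ELAPOR1 cells and 41.1 ± 0.475 FPKM in vector cells.

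The oligosaccharyltransferase, which transfers the finished glycan, held 6 of the 15 calls, all of small size: of 8 tested subunits 5 were lower and 1 higher in ELAPOR1 cells, with a median of -0.12. That is 62.5% lower, beside 11.4% of all tested genes, a share taken over genes of all levels and not matched for abundance. Its 9 genes summed to 536.5 to 556.1 FPKM in ELAPOR1 cells and 579.4 to 597.6 FPKM in vector cells. The lower genes include the catalytic subunit STT3A, whose complex works at the translocon on chains still being made. STT3A had 265, 256 and 259 CPM in ELAPOR1 cells, against 283, 289 and 285 CPM in vector cells, and fell by 0.14 ± 0.033 (SE) on the log2 scale (edgeR adjusted p 0.00119). STT3B, the catalytic subunit that reaches sites skipped by STT3A, went the other way, with 406, 383 and 395 CPM in ELAPOR1 cells, against 342, 356 and 355 CPM in vector cells. Its log2 fold change was 0.17 ± 0.032 (edgeR adjusted p 2.21e-05). Neither gene's groups overlap, and the values of STT3B minus STT3A differed by 0.31 (95% interval 0.22 to 0.40). STT3B made up 69.1% ± 0.280 of their summed FPKM in ELAPOR1 cells and 64.4% ± 0.364 in vector cells. STT3A shares 80 exonic bases with CHEK1 on the same strand, which had a log2 value of 0.02.

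Among the other subunits, OSTC, which ties the STT3A complex to the translocon, had 38.8, 41.5 and 41.5 CPM in ELAPOR1 cells, against 49.0, 47.4 and 50.6 CPM in vector cells, and fell by 0.27 on the log2 scale (edgeR adjusted p 9.41e-04). RPN1 had 222, 225 and 237 CPM in ELAPOR1 cells, against 255, 245 and 260 CPM in vector cells (log2 -0.15, edgeR adjusted p 6.96e-04). RPN2 had 432, 410 and 402 CPM in ELAPOR1 cells, against 440, 445 and 446 CPM in vector cells (log2 -0.10, edgeR adjusted p 0.0148). RPN1, RPN2 and DAD1 are structural subunits common to both complexes. DAD1 had 74.5, 68.2 and 67.0 CPM in ELAPOR1 cells, against 76.9, 79.8 and 81.7 CPM in vector cells (log2 -0.19, edgeR adjusted p 0.00564). The groups do not overlap for any of these 4 genes. The call of RPN2 was lost without ELAPOR1 replicate 2 (adjusted p 0.0765), ELAPOR1 replicate 3 (0.137) or vector replicate 3 (0.0560), in a range of 0.00194 to 0.137 over the alternatives. That of DAD1 was lost without ELAPOR1 replicate 3 (0.0578, range 0.00179 to 0.0660). DDOST, another shared subunit, and MAGT1, the oxidoreductase of the STT3B complex, did not pass (log2 -0.06 and -0.08, edgeR adjusted p 0.284 and 0.156). With TUSC3, the alternative oxidoreductase, at 0 to 2 counts, MAGT1 carried nearly all of that pair's FPKM in both groups.

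In assembly of the glycan on dolichol, 16.7% of the cytosolic genes and none of the luminal ones passed, beside 21.4% of all tested genes. On the cytosolic side 1 of 6 genes was lower, ALG2, a mannosyltransferase, with 34.9, 33.6 and 39.2 CPM in ELAPOR1 cells, against 41.6, 42.0 and 44.4 CPM in vector cells. It fell by 0.25 on the log2 scale (edgeR adjusted p 0.00573), and the groups did not overlap. Without ELAPOR1 replicate 2 its adjusted p was 0.0628 (range 0.00190 to 0.0789 over the alternatives). DPAGT1, which starts the chain, ALG13 and ALG14, which add the next GlcNAc, and the mannosyltransferases ALG1 and ALG11 did not pass, with log2 values between -0.13 and 0.18. ALG1 had the highest of these, at 29, 28.8 and 29.6 CPM in ELAPOR1 cells and 22.3, 28.4 and 26.3 CPM in vector cells (edgeR adjusted p 0.118). Vector replicate 1 was the low one for ALG1, and without vector replicate 2 the adjusted p was 0.0397 (range 0.0397 to 0.575). None of the 6 luminal genes passed: the mannosyltransferases ALG3, ALG9 and ALG12 and the glucosyltransferases ALG6, ALG8 and ALG10 had log2 values from -0.21 to 0.14 and summed to 24.8 FPKM in ELAPOR1 cells and 25.4 FPKM in vector cells.

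Of the 5 genes that supply dolichol-bound sugars or recycle dolichol, 1 was lower, or 20.0% called, near the 21.4% of all tested genes. ALG5, which makes dolichol-phosphate glucose, had 32.7, 27.1 and 31.2 CPM in ELAPOR1 cells, against 35.0, 36.6 and 39.1 CPM in vector cells. These do not overlap, and it fell by 0.28 on the log2 scale (edgeR adjusted p 0.00406), a call lost without ELAPOR1 replicate 2 (0.0796, range 0.00193 to 0.225). DPM1, DPM2 and DPM3, the subunits of the dolichol-phosphate mannose synthase, and DOLPP1, which recycles dolichol pyrophosphate, had log2 values of -0.25 to -0.05 without passing. The ER glucosidases, which remove the glucoses after transfer, were level: MOGS, GANAB and PRKCSH had log2 values of 0.03, 0.06 and 0.02, and GANAB, the catalytic subunit of glucosidase II, stood at 149.6 FPKM in ELAPOR1 cells and 145.7 FPKM in vector cells (edgeR adjusted p 0.117).

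Because several lower genes serve the ER, promoters were searched on both strands for motifs of the unfolded protein response and for shorter motifs within them. All were chosen with these values known. RefSeq gave the 250 bases before the start for 40 of the 48 genes, 9 of the 10 lower genes among them. The ER stress response element, which joins CCAAT to CCACG across a fixed gap, occurred in 0.0740% of 35116 promoters and in 1 of the 40, ALG12, which did not pass the test. The element TGACGTGG occurred in 0.612% of promoters and in none of the 40. The shorter ACGTG, the core of the hypoxia response element, which lies within TGACGTGG, occurred in 18.5% of promoters, in 15 of the 40 and in 4 of the 9 lower genes, namely ALG2, STT3A, DAD1 and OSTC. CCAAT alone occurred in 32.0% of promoters and in 15 of the 40. Shown are ALG12, the one with the long element, and, from the lower oligosaccharyltransferase genes with ACGTG, STT3A and OSTC but not DAD1. They are RefSeq's (GRCh38.p14), 5′ to 3′ on the gene's strand, at chr22:49918439-49918688 (minus), chr11:125592602-125592851 (plus) and chr4:108650349-108650598 (plus), with capitals marking the long element in ALG12 and ACGTG, on either strand, in the others.
ALG12: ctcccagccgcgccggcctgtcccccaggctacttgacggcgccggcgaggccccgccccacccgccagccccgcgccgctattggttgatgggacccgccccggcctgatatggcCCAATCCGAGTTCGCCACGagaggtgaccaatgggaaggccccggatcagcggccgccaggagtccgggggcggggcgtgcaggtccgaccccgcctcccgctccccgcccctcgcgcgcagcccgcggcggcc
STT3A: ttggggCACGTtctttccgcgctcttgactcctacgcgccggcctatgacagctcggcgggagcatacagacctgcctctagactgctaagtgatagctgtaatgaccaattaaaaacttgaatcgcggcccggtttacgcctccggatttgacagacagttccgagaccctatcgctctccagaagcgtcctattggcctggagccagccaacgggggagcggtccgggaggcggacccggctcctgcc
OSTC: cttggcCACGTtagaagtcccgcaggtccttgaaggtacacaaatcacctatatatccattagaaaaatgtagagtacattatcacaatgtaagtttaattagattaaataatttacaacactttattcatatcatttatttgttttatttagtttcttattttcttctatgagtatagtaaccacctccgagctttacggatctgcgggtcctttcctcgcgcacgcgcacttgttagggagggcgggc
The element in ALG12 began 134 bases before the RefSeq start, and the short motif lay 244 bases before the RefSeq start in both STT3A and OSTC, on the opposite strand. In DAD1 and ALG2, not shown, the short motif lay 189 and 63 bases before the RefSeq start, also on the opposite strand. That start is the count table's for ALG12, and lies 14 bases inside the table's gene for OSTC and 1140 bases inside it for STT3A, so the window of STT3A lies within the gene as the table bounds it. A match describes the letters in the window and no more.

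Beyond the 48 genes, 112 others were listed with the pathway, some better known for other glycans, and 101 could be tested. Of these 14 were higher and 21 lower (34.7% called, beside 21.4% of all tested genes), with a median log2 value of -0.02. That is 13.9% higher and 20.8% lower, beside 10.0% and 11.4% of all tested genes. The count of higher genes was 8 without ELAPOR1 replicate 2 and 9 without ELAPOR1 replicate 3. Of 22 tested genes of sugar nucleotide synthesis 1 was higher and 8 lower, 36.4% lower beside 11.4% of all genes. The higher one was GNE, which commits UDP-GlcNAc to sialic acid, with 13.2, 15.1 and 13.7 CPM in ELAPOR1 cells, against 5.47, 5.04 and 5.09 CPM in vector cells. Its groups were well apart, and it was 2.69-fold higher (log2 1.43 ± 0.136, edgeR adjusted p 7.56e-14). GFUS, which makes GDP-fucose, was lower by a log2 value of -0.26 (edgeR adjusted p 0.00280). UAP1L1, a relative of the UDP-GlcNAc pyrophosphorylase, was at -0.29 (0.0409), a call that was lost without any single library except vector replicate 3 (adjusted p 0.0525 to 0.269).

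Of 18 other Golgi transferases that could be tested, 4 were higher and 3 lower (22.2% and 16.7%, beside 10.0% and 11.4% of all genes). B4GALT6, best known for making lactosylceramide, had 4.0, 5.64 and 4.38 CPM in ELAPOR1 cells, against 1.53, 1.5 and 1.64 CPM in vector cells. It was thus 3.01-fold higher without overlap (log2 1.59 ± 0.256, edgeR adjusted p 9.46e-07), from a low level. MGAT5B, a brain-type relative of MGAT5, fell by 0.48 on the log2 scale (9.70e-06), and FUT11, a fucosyltransferase, fell by 0.44 (1.89e-04), both by edgeR adjusted p. Of 3 further oligosaccharyltransferase subunits, KRTCAP2 and the small subunit TMEM258 were lower (log2 -0.38 and -0.25, edgeR adjusted p 0.0198 and 0.00122). KRTCAP2 joins the STT3A complex to the translocon as OSTC does, and had 8.86, 8.56 and 9.43 CPM in ELAPOR1 cells, against 11.3, 12.2 and 11.6 CPM in vector cells. Its call was lost without ELAPOR1 replicate 1 (0.0509), ELAPOR1 replicate 2 (0.0816) or vector replicate 2 (0.0796), and that of TMEM258 without ELAPOR1 replicate 2 (0.124). TMEM258 shares 400 exonic bases with MYRF on the opposite strand. KRTCAP2 shares 705 with an unnamed gene on the same strand that held 0 counts, so its level is uncertain. Of the 3 further subunits 66.7% were lower, beside 11.4% of all tested genes.

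Genes that read the glycan in protein folding and disposal had 3 lower and none higher of 15, or 20.0% called, near the 21.4% of all genes. The 3 were EDEM1, which directs trimmed misfolded glycoproteins to disposal, UGGT2, a relative of the glucosyltransferase that senses folding, and CANX, the lectin chaperone calnexin, at log2 -0.25, -0.24 and -0.16 (edgeR adjusted p 0.00241, 7.87e-05 and 7.91e-07). Among 9 nucleotide sugar transporters 3 were higher and 1 lower (33.3% and 11.1%, beside 10.0% and 11.4% of all tested genes). SLC35A1, which carries CMP-sialic acid into the Golgi, was at 0.33 (0.0290), SLC35D1, which carries UDP-glucuronic acid and UDP-GalNAc into the ER, at 0.26 (0.0138) and SLC35A3, the UDP-GlcNAc transporter, at -0.19 (0.0355), all log2 values with edgeR adjusted p. On the same strand SLC35A1 shares 1106 exonic bases with an unnamed gene, and SLC35A3 shares 1160 with another. Single libraries decided these calls: without one the adjusted p reached 0.138 for SLC35A1 (vector replicate 3; also lost without ELAPOR1 replicate 2 or 3 or vector replicate 2), 0.224 for SLC35D1 (ELAPOR1 replicate 3) and 0.174 for SLC35A3 (ELAPOR1 replicate 1; also lost without ELAPOR1 replicate 2 or vector replicate 2 or 3). Of 3 genes of mannose 6-phosphate tagging, NAGPA, which uncovers the tag, and GNPTG, a subunit of the enzyme that starts it, were higher (log2 0.45 and 0.29, edgeR adjusted p 0.00339 and 0.00745), the call of GNPTG being lost without ELAPOR1 replicate 2 (0.0912). Both overlap genes on the opposite strand. In this list of 3 genes 66.7% were higher, beside 10.0% of all tested genes.

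Of 14 genes of Golgi organisation 2 were higher and 2 lower, 14.3% each way, near the 10.0% and 11.4% of all genes. The tethering subunit COG3 fell by 0.37 on the log2 scale (edgeR adjusted p 9.45e-07) and COG6 was at -0.21 (0.0358), while COG4 was at 0.18 (4.22e-04). The call of COG6 was lost without ELAPOR1 replicate 1 (0.11), ELAPOR1 replicate 2 (0.127) or vector replicate 3 (0.233). Of 10 lysosomal hydrolases that degrade glycans 2 were higher and none lower, 20.0% called and near the 21.4% of all genes. MAN2B1, the lysosomal alpha-mannosidase, was at 0.33 (edgeR adjusted p 0.00203; 0.0546 without ELAPOR1 replicate 3), beside 3.07 for its Golgi relative MAN2A1. GLB1, the beta-galactosidase, was at 0.16 (0.0419), lost without any 1 ELAPOR1 library or vector replicate 3 (0.0812 to 0.283). Of 7 dolichol and flippase genes MPDU1, needed for the use of dolichol-bound sugars, and NUS1, a subunit of the enzyme that makes the dolichol chain, were lower, at -0.14 (0.0373) and -0.10 (0.0495), and each lost its call without any of 4 libraries (adjusted p 0.111 to 0.168 for MPDU1 without ELAPOR1 replicate 1 or 3 or vector replicate 1 or 2, and 0.0695 to 0.251 for NUS1 without ELAPOR1 replicate 1 or 2 or vector replicate 2 or 3). MPDU1 shares 192 exonic bases with FXR2 on the opposite strand, which was itself lower by a log2 value of -0.28. Of the 7 dolichol and flippase genes 28.6% were lower, beside 11.4% of all tested genes.

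**Figure D4:**
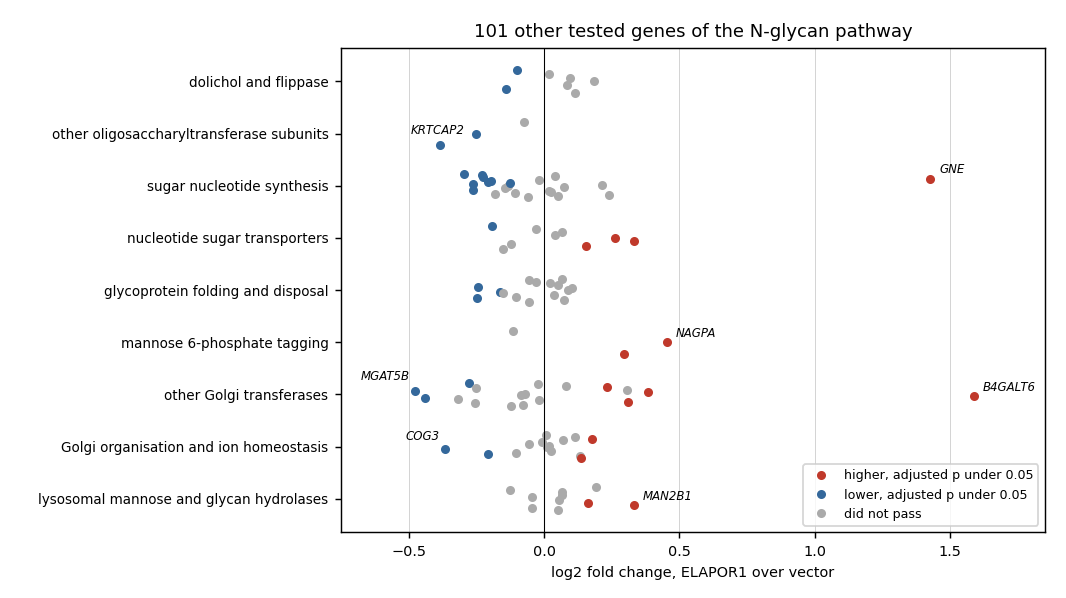
Log2 fold change (horizontal axis, ELAPOR1 over vector) of 101 further genes listed with the N-glycan pathway, 1 row per list. Some of them, B4GALT6 among them, are better known for other glycans. Red points passed the edgeR threshold as higher in ELAPOR1 cells, blue points as lower and grey points did not pass. The vertical scatter within a row only separates points. B4GALT6 at 1.59 and GNE at 1.43 lie far to the right of the other genes, which all lie within 0.48 of 0.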

How the data were processed

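Poly(A) RNA-seq of 3 ELAPOR1 and 3 vector libraries was analysed. The authors deposited read counts per gene without normalization, and FPKM values that divide them by exonic length and library total; exonic length, another deposited column, is in bases. Per the submitters' processing notes the tools were HTSeq 0.6.1, HISAT2 2.0.1, cutadapt 1.9.1 and DESeq2, with the build GRCh38; the annotation release and strand setting are not given in the sources used here. Genes that overlap on opposite strands can therefore not be told apart. Exonic bases shared on the same strand cannot be told apart either, and overlaps are given above for some genes only. The authors' second deposited table holds a mean normalized signal, log2 fold changes with standard errors, and p-values of their comparison. Columns were matched by name, K read as ELAPOR1 (older symbol KIAA1324) and NC as vector.

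The quasi-likelihood test of edgeR 4.0.16 (R 4.3.3) was run on the counts (TMM factors, genes kept by filterByExpr, Benjamini-Hochberg adjusted p under 0.05 over 16003 genes, two-sided). A standard error is the absolute log2 change over the square root of F. Shares use FPKM and exact two-sided permutation tests. Alternatives used DESeq2 1.42.0 and limma 3.58.1 (at least 0.5 FPKM in 3 libraries, pseudocounts 1 and 0.1). Promoters came from RefSeq and transcripts from GENCODE 29. Within groups, pairs of libraries differed by more than sampling noise (mean chi-square per gene 2.45 to 3.64, where noise alone gives 1). The genes, lists and motifs were chosen with earlier results of these data known. Values per library are given for ELAPOR1, MAN2A1, MGAT4A, their paralogs and called genes; of each other list, up to 3 called genes with the largest change are named.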

Additional observations from a re-analysis of the deposited data

How the results depend on the processing

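In none of the 16 alternative settings did a called N-glycan gene change direction. Of the 15 calls, 7 were kept in every setting that tested the gene (STT3A, STT3B, OSTC, MAN1A1, MAN2A1, MGAT4A and B4GALT1) and 8 were lost in at least 1; MGAT4A was under the FPKM filter of limma and untested there. Of the 23 further pathway genes named, 8 kept their calls in every setting. The causes of the shifts were not tested.

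Genes called across the table numbered 2133 with limma on log2(FPKM + 1), 2098 with a pseudocount of 0.1 and 1378 without the filter, and 2723 to 3187 leaving out 1 library. Higher N-glycan genes numbered 3 with library sizes alone, 3 in edgeR with no filter, 2 and 2 in limma and 3 in limma without the filter, and 3 to 5 leaving out 1 library. Lower ones numbered 4 in limma without the filter, and 7 to 10 leaving out 1 library. Other pathway genes numbered 5, 5 and 5 higher in the 3 limma settings, and 13 lower with a pseudocount of 0.1 and 10 lower without the filter; leaving out 1 library gave 8 to 14 higher and 14 to 19 lower.

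Leaving out 1 library gave log2 fold changes of 3.04 to 3.09 for MAN2A1 and 2.18 to 3.41 for MGAT4A. In limma on log2(FPKM + 1) without the filter they were 2.78 for MAN2A1 and 0.28 for MGAT4A, whose FPKM lay below that pseudocount. The share differences were 36.5 percentage points for MAN2A1 and 1.79 for MGAT4A with CPM in place of FPKM, and 38.4 to 39.3 and 0.969 to 1.15 leaving out 1 library. Same-numbered libraries did not deviate together over all tested genes (correlations of -0.0156, -0.0256 and -0.0161). The labels state no pairing, and with 3 libraries per group such correlations cannot exclude one. With a replicate block, 3361 genes were called, with 5 N-glycan genes higher and 10 lower. Other pathway genes were 13 higher and 21 lower. The log2 fold changes were then 3.07 for MAN2A1 and 2.58 for MGAT4A. Depth limits MGAT4A, TUSC3, MAN1C1 and ST3GAL6.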
